A study of Homo sapiens with 12 samples.

Results

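The genes described here are 49 genes of the synaptic vesicle and its release machinery, taken as the rows of both deposited RNA-seq tables whose gene symbol was on the list. All 49 were measured in both neuron types, among 16406 genes tested in iMNs and 19016 in i3Ns. The list holds 10 synaptotagmins and DOC2 proteins, 7 vesicle membrane proteins, 5 synapsins and synucleins, 6 SNARE proteins, 6 SNARE regulators and disassembly factors, 9 active zone scaffolds, 4 priming factors and 2 vesicle recycling factors. The rule used gene symbols only, but the members were chosen with earlier results of these data known.

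The study compared neurons depleted of SMN, the protein lost in spinal muscular atrophy, with neurons carrying a scrambled shRNA (SCR). The iMNs were motor neurons differentiated from the human iPSC line NINDS (NH50286), in which Td-Tomato is driven by the HB9 promoter, and were purified by FACS on that reporter. The i3Ns were made from H1, an established human ES cell line, by inducible expression of NGN2, a transcription factor that directs stem cells to a glutamatergic fate. Both neuron types were transduced with lentivirus carrying an shRNA from a doxycycline-regulated vector with a TagRFP reporter, against *SMN1* and *SMN2* (*SMN*-KD) or scrambled, so the SCR neurons also carried the vector. RNA was taken after 12 days of knockdown. There were 3 SCR and 3 *SMN*-KD libraries of each type, 12 in all. Each neuron type came from 1 line, and nothing in the labels says whether replicates were separate differentiations, so the p-values measure the spread between these libraries only.

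Neurons release transmitter when calcium entering the terminal triggers fusion of synaptic vesicles with the plasma membrane. Vesicles are held in clusters by synapsins, docked and primed at the active zone by RIM, ELKS, liprin and UNC13 proteins, and fused when the vesicle SNARE synaptobrevin (VAMP) zips with *SNAP25* and syntaxin. Synaptotagmins on the vesicle sense the calcium, complexins hold the assembled SNAREs ready, and the ATPase *NSF* with its SNAP adaptors takes the spent complexes apart. Motor terminals at the neuromuscular junction rely chiefly on *SYT2* and *VAMP1*, while forebrain terminals rely chiefly on *SYT1* and *VAMP2*.

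The shRNA sequences are given because a short guide can also pair with other mRNAs through its first bases. Whether either guide did so with these genes was not tested. The SMN shRNA target, read here from the *SMN2* transcript, is shown with capitals on the 8 bases that face guide bases 2 to 9. Sites in the 3′-UTRs of release genes are shown for members with such an 8-base match, for the member with matches to both guides and for the members with the most different responses among those matching the scrambled guide. In the site lines, capitals mark the 7 bases that match a guide, on the strand of the mRNA.
*SMN2* target: atctgtgaagtaGCTAATAAt
*SYT7*, SMN guide bases 2 to 8: gcccaggtgtgCTAATAAacgttcatctt
*VAMP4* first site, SMN guide bases 2 to 8: catctgaacagCTAATAAatcttttaagt
*VAMP4* second site, SMN guide bases 2 to 8: aatttcagtagCTAATAAttcaggaatgg
*RIMS1*, SMN guide bases 2 to 8: gtttgaatgtgCTAATAAaagagacaact
*CADPS2*, SMN guide bases 2 to 8: atcaatgttaaCTAATAAttagtaatgtt
*CADPS2*, scrambled guide bases 2 to 8: agtaatattaaCTAGTAAttcacattatt
*SYT2*, scrambled guide bases 2 to 8: agggtgtctggCTAGTAAggggttctgga
*SYT1*, scrambled guide bases 3 to 9: actcgtaaggcACTAGTAcagttaaactg
*NSF*, scrambled guide bases 3 to 9: tattaaggcttACTAGTAtcactgctttt

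All of these sites lie in the last exon of the MANE Select transcript (GRCh38, GENCODE 44). The 7 matched bases are at chr11:61513735-61513741 on the minus strand for *SYT7* (exon 13), at chr1:171702737-171702743 and chr1:171702678-171702684 on the minus strand for *VAMP4* (exon 8), and at chr6:72403120-72403126 on the plus strand for *RIMS1* (exon 34). In *CADPS2* (exon 30, minus strand) they are at chr7:122319102-122319108 for the SMN guide and chr7:122319073-122319079 for the scrambled guide. Those in *SYT2* are at chr1:202593888-202593894 (exon 9, minus strand), in *SYT1* at chr12:79449603-79449609 (exon 11, plus strand) and in *NSF* at chr17:46756688-46756694 (exon 21, plus strand).

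The knockdown was present in both tables. Summed over the 5 identifiers that carry either symbol, *SMN1* and *SMN2* went from 1923 to 424 normalized counts in iMNs, a change of -77.9%, and from 1839 to 318 in i3Ns, a change of -82.7%. The tables hold 1 mean per gene over 6 libraries and 1 fold change, so group means are derived values and no level per library is given. The 7 motor neuron markers did not all follow the cell type labels. Against them, *MNX1* (HB9), *ISL1*, *ISL2* and *LHX3* had higher means in the i3N table (2279, 14299, 3558 and 230 normalized counts). Their means in the iMN table were 430, 1663, 70.6 and 15.1. *SLC18A3* and *SLC5A7* went with the labels, at 3115 and 8460 in the iMN table and 1865 and 2472 in the i3N table. *CHAT*, the enzyme that makes acetylcholine, was at a mean of 533 in iMNs and 527 in i3Ns. The vesicular glutamate transporters *SLC17A7* (50.1 in iMNs and 6490 in i3Ns) and *SLC17A6* (593 and 11237) went with the labels. The i3N cultures also carried genes of other cells that were lower in *SMN*-KD. The summed level of 6 proliferation markers went from 2160 to 430 (6 of 6 lower, 5 of them by more than 2-fold), that of 7 mesenchymal markers from 12275 to 2057 (5 of 7 lower and 1 higher) and that of 5 measured oligodendrocyte lineage markers from 2291 to 933 (3 lower and 1 higher). In iMNs the mesenchymal sum went from 2136 to 3705 and the proliferation sum from 236 to 244. In bulk RNA, fewer cells of a type and less RNA per cell cannot be told apart, and this holds for every value below.

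More release genes were lower than higher after *SMN*-KD in both neuron types. In iMNs 21 of the 49 were lower (42.9%) and 10 were higher (20.4%) at a DESeq2 adjusted p under 0.01. Of all genes tested there 18.7% were lower and 17.1% higher. In i3Ns 23 were lower (46.9%) and 14 higher (28.6%), where 25.7% of all genes were lower and 22.8% higher. Release genes were abundant, with a median mean of 6337 normalized counts in iMNs against 875 for all genes, and a larger share of abundant genes passed. Among genes with a mean of at least 1000, 20 of 44 release genes were lower in iMNs (45.5%) beside 28.7% of genes, and 20 of 42 in i3Ns (47.6%) beside 35.3%. By the same comparison 10 were higher in iMNs (22.7%) beside 25.0% of genes, and 12 in i3Ns (28.6%) beside 35.4%. The median log2 fold change of the 49 was -0.11 in iMNs and -0.09 in i3Ns, against 0.00 and 0.01 for all genes.

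Most of these changes were small in iMNs. The study's rule for a called gene was an adjusted p under 0.01 and a change of more than 1 on the log2 scale. By this rule 1 release gene was called lower in iMNs (*VAMP1*, 2.04%) beside 2.37% of all genes. There 1 was called higher (*NSF*, 2.04%) beside 0.969%. In i3Ns 9 were called lower (18.4%) beside 9.53% of all genes, and 1 was called higher, again *NSF* (2.04%), beside 4.23%. Among genes with a mean of at least 1000, 6 of 42 release genes were called lower in i3Ns (14.3%) beside 6.22% of genes. By the same comparison 1 was called higher (2.38%) beside 3.01%. The 9 were *CADPS2*, *SYT2*, *SYT5*, *SV2C*, *DOC2A*, *VAMP1*, *SYT13*, *SNCB* and *SYT11*. The size of the change was larger in i3Ns than in iMNs for 37 of the 49 genes, and the median size was 0.40 against 0.18 on the log2 scale. Over all genes tested the median sizes were 0.32 and 0.16.

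**Figure D1:**
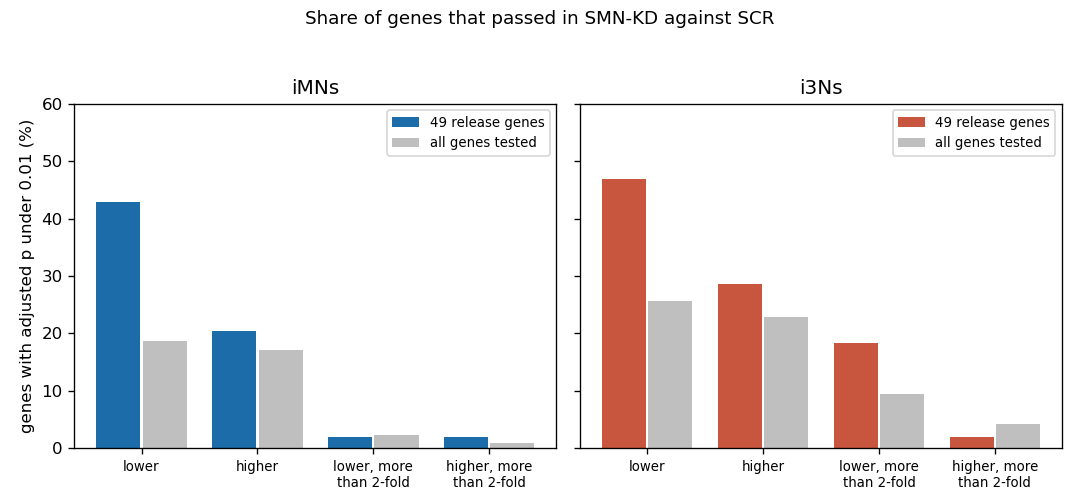
Percent of the 49 release genes (coloured bars) and of all genes tested (grey bars) with an adjusted p under 0.01 in *SMN*-KD against SCR, by direction, without and with the requirement of a more than 2-fold change. Lower release genes stood above the share of all genes in both neuron types, at 42.9% beside 18.7% in iMNs and 46.9% beside 25.7% in i3Ns, before any allowance for their abundance. The release genes were chosen with earlier results of these data known.

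Of the 9 genes called lower in i3Ns, 5 were synaptotagmins or DOC2 proteins. *SYT2* (ENSG00000143858, chr1:202590596-202710454, minus strand), the fast calcium sensor of motor terminals, went from 1902 to 259 normalized counts in i3Ns, a log2 change of -2.87 ± 0.12 (SE, 3 against 3 libraries, DESeq2 adjusted p = 2.05e-132). In iMNs it went from 1687 to 964, a change of -0.81 ± 0.08 (adjusted p = 1.9e-25). *SMN*-KD neurons thus held 0.136 times the SCR level of *SYT2* in i3Ns and 0.571 times in iMNs. *SYT5* (ENSG00000129990, chr19:55171196-55180289, minus strand), a further calcium-binding synaptotagmin, went from 4159 to 1060 in i3Ns (-1.97 ± 0.09, adjusted p = 1.05e-104) and from 5487 to 4458 in iMNs (-0.30 ± 0.05, adjusted p = 8.95e-10). *DOC2A* (ENSG00000149927, chr16:30005514-30023270, minus strand), a soluble high-affinity calcium sensor linked to spontaneous and asynchronous release, went from 748 to 254 in i3Ns (-1.56 ± 0.11, adjusted p = 5.56e-42). In iMNs *DOC2A* was at 459 in SCR and 378 in *SMN*-KD, a change of -0.28 that did not pass (adjusted p = 0.0444).

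A pair of synaptotagmins that lack the usual calcium-binding residues were also called lower in i3Ns. *SYT13* (ENSG00000019505, chr11:45240302-45286341, minus strand) went from 11899 to 4725 normalized counts there (-1.33 ± 0.04, adjusted p = 3.8e-210) and from 15916 to 11345 in iMNs (-0.49 ± 0.03, adjusted p = 8.4e-55). *SYT11* (ENSG00000132718, chr1:155859567-155885199, plus strand), which acts in vesicle retrieval rather than as a calcium sensor, went from 35042 to 14465 in i3Ns (-1.28 ± 0.03, adjusted p listed as 0) and from 14498 to 10296 in iMNs (-0.49 ± 0.04, adjusted p = 1.33e-32). Per kb of transcript *SYT11* was the highest of the family in SCR i3Ns, at 6762 normalized counts per kb.

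The family did not fall as a whole. *SYT1*, the fast sensor of forebrain terminals, rose from 9724 to 13622 normalized counts in iMNs (0.49 ± 0.03, adjusted p = 6e-53) and from 17702 to 28240 in i3Ns (0.67 ± 0.04, adjusted p = 2.84e-71). *SYT4*, which like *SYT11* does not bind calcium in the usual way and sits largely on dense-core vesicles, was the highest of the family per kb in SCR iMNs (7828 per kb). It rose from 30810 to 38371 in iMNs (0.32 ± 0.03, adjusted p = 4.62e-24) and from 22746 to 35486 in i3Ns (0.64 ± 0.05, adjusted p = 2.71e-40). Per kb of transcript, *SYT1* stood at 15.1 times the level of *SYT2* in SCR i3Ns and at 177 times in *SMN*-KD i3Ns, and at 9.35 and 22.9 times in iMNs. *SYT7*, the sensor for slow asynchronous release, fell in both types (-0.55 ± 0.05 and -0.58 ± 0.05), as did *DOC2B* (-0.33 and -0.36), and *SYT3* passed in neither. Of the 10 genes, 6 fell and 2 rose in iMNs and 7 fell and 2 rose in i3Ns, with medians of -0.31 and -0.93.

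Of the 7 vesicle membrane proteins, 4 fell and 1 rose in i3Ns, and 2 fell in iMNs. *SV2C* (ENSG00000122012, chr5:76083383-76353939, plus strand), a vesicle glycoprotein of the family that binds botulinum toxin, went from 11806 to 3414 normalized counts in i3Ns (-1.79 ± 0.06, adjusted p = 1.78e-216). In iMNs it went from 20314 to 17716 (-0.20 ± 0.03, adjusted p = 4.06e-11). Its paralogs moved less in i3Ns, with *SV2B* at -0.50 ± 0.07 and *SV2A*, the most abundant of the 3, at -0.28 ± 0.03, and neither passed in iMNs (-0.12 and -0.02). Synaptophysin (*SYP*), the most abundant release gene per kb in both tables (11339 per kb in SCR iMNs and 8310 in SCR i3Ns), fell from 20118 to 15225 in i3Ns (-0.40 ± 0.03, adjusted p = 2.5e-32). In iMNs it was at 27451 and 25615 (-0.10 ± 0.03, adjusted p = 0.0121). Of the synaptogyrins, *SYNGR3* fell in iMNs (-0.23 ± 0.03) and not in i3Ns (0.02 ± 0.04), and *SYNGR1* passed in neither. The more widely expressed *SYPL1* rose in i3Ns (0.44 ± 0.11) and was at -0.05 ± 0.17 in iMNs, a difference that did not pass (Wald adjusted p = 0.0385).

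Among the synapsins and synucleins, the synucleins fell in both types. *SNCB* (ENSG00000074317, chr5:176620082-176630556, minus strand), beta-synuclein, went from 669 to 268 normalized counts in i3Ns (-1.32 ± 0.12, adjusted p = 1.17e-28) and from 1292 to 948 in iMNs (-0.45 ± 0.07, adjusted p = 9.69e-10). *SNCG*, gamma-synuclein and the highest of the group per kb in both tables (10195 and 5934 per kb in SCR), went from 7708 to 5613 in iMNs (-0.46 ± 0.04, adjusted p = 3.13e-32) and from 4486 to 3499 in i3Ns (-0.36 ± 0.06, adjusted p = 1.08e-08). The synapsins, which tether vesicles to each other and to actin, did not move together. *SYN1* fell in iMNs (-0.19 ± 0.03) and was at -0.04 ± 0.04 in i3Ns, a difference of 0.15 that did not pass (adjusted p = 0.0112). *SYN2* rose in i3Ns from 681 to 1168 (0.78 ± 0.09, adjusted p = 2.19e-16) and *SYN3* passed in neither.

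The SNARE proteins split by paralog. *VAMP1* (ENSG00000139190, chr12:6462237-6470677, minus strand), the synaptobrevin of motor terminals, was called lower in both neuron types, from 5760 to 2711 normalized counts in iMNs (-1.09 ± 0.06, adjusted p = 1.28e-79) and from 848 to 302 in i3Ns (-1.49 ± 0.11, adjusted p = 2.43e-41). *VAMP2*, its forebrain paralog and the most abundant SNARE per kb (10726 per kb in SCR iMNs and 7698 in SCR i3Ns), rose from 22804 to 28282 in iMNs (0.31 ± 0.03, adjusted p = 7.49e-27) and from 16365 to 19203 in i3Ns (0.23 ± 0.04, adjusted p = 3.07e-09). The 2 paralogs thus changed in opposite directions in each neuron type, as *SYT2* and *SYT1* did, and *VAMP2* went from 5.10 to 13.4 times the level of *VAMP1* per kb in iMNs and from 24.8 to 81.8 times in i3Ns. Of the target membrane SNAREs, *STX1A* rose in both types (0.18 ± 0.05 and 0.78 ± 0.07) and *SNAP25* fell slightly in both (-0.16 ± 0.03 and -0.23 ± 0.04). *SNAP29*, which serves autophagosome fusion, rose in i3Ns (0.56 ± 0.08), and *VAMP4*, an endosomal and Golgi SNARE, fell in iMNs (-0.49 ± 0.10) and was at -0.20 ± 0.10 in i3Ns, a difference that did not pass (adjusted p = 0.0764).

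*NSF*, the ATPase that recycles SNARE complexes, was the one release gene called higher, and was so in both neuron types. It went from 2217 to 6195 normalized counts in iMNs (1.48 ± 0.15, adjusted p = 6.69e-22) and from 1379 to 3365 in i3Ns (1.29 ± 0.10, adjusted p = 9.28e-40). These values belong to ENSG00000278174, an identifier outside the main annotation. A second such identifier, ENSG00000276262, changed by 1.45 ± 0.06 in iMNs and 1.35 ± 0.12 in i3Ns, and the sums of both changed by 1.47 and 1.32. These 2 were the only identifiers measured under the symbol *NSF*, and neither is that of the main chromosome 17 locus (46590669 to 46757679, plus strand). The transcript length and guide site used for *NSF* are those of the main locus. *NSF* is therefore uncertain as a level, since reads of near-identical copies can be split between identifiers. The pseudogene *NSFP1*, which derives from part of *NSF*, changed by 0.05 and 0.43 in iMNs at its 2 identifiers and by 0.24 in i3Ns, and passed at none of them. *NAPA*, the alpha-SNAP adaptor that brings *NSF* to spent SNARE complexes, rose in iMNs (0.15 ± 0.05, adjusted p = 0.00832) and was at 0.08 ± 0.05 in i3Ns (adjusted p = 0.122).

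*NAPB*, the brain SNAP adaptor and the highest of the regulators per kb in both tables (3783 and 3311 per kb in SCR), moved in opposite directions. It rose from 14517 to 16356 normalized counts in iMNs (0.17 ± 0.04, adjusted p = 5.89e-06) and fell from 12706 to 9873 in i3Ns (-0.36 ± 0.03, adjusted p = 4.35e-26). The complexins split as well, with *CPLX1* lower in both types (-0.22 ± 0.04 and -0.77 ± 0.05) and *CPLX2* higher in both (0.23 ± 0.03 and 0.39 ± 0.03). *STXBP5* (tomosyn), which holds syntaxin away from the release complex, fell in both (-0.45 ± 0.05 and -0.37 ± 0.05).

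**Figure D2:**
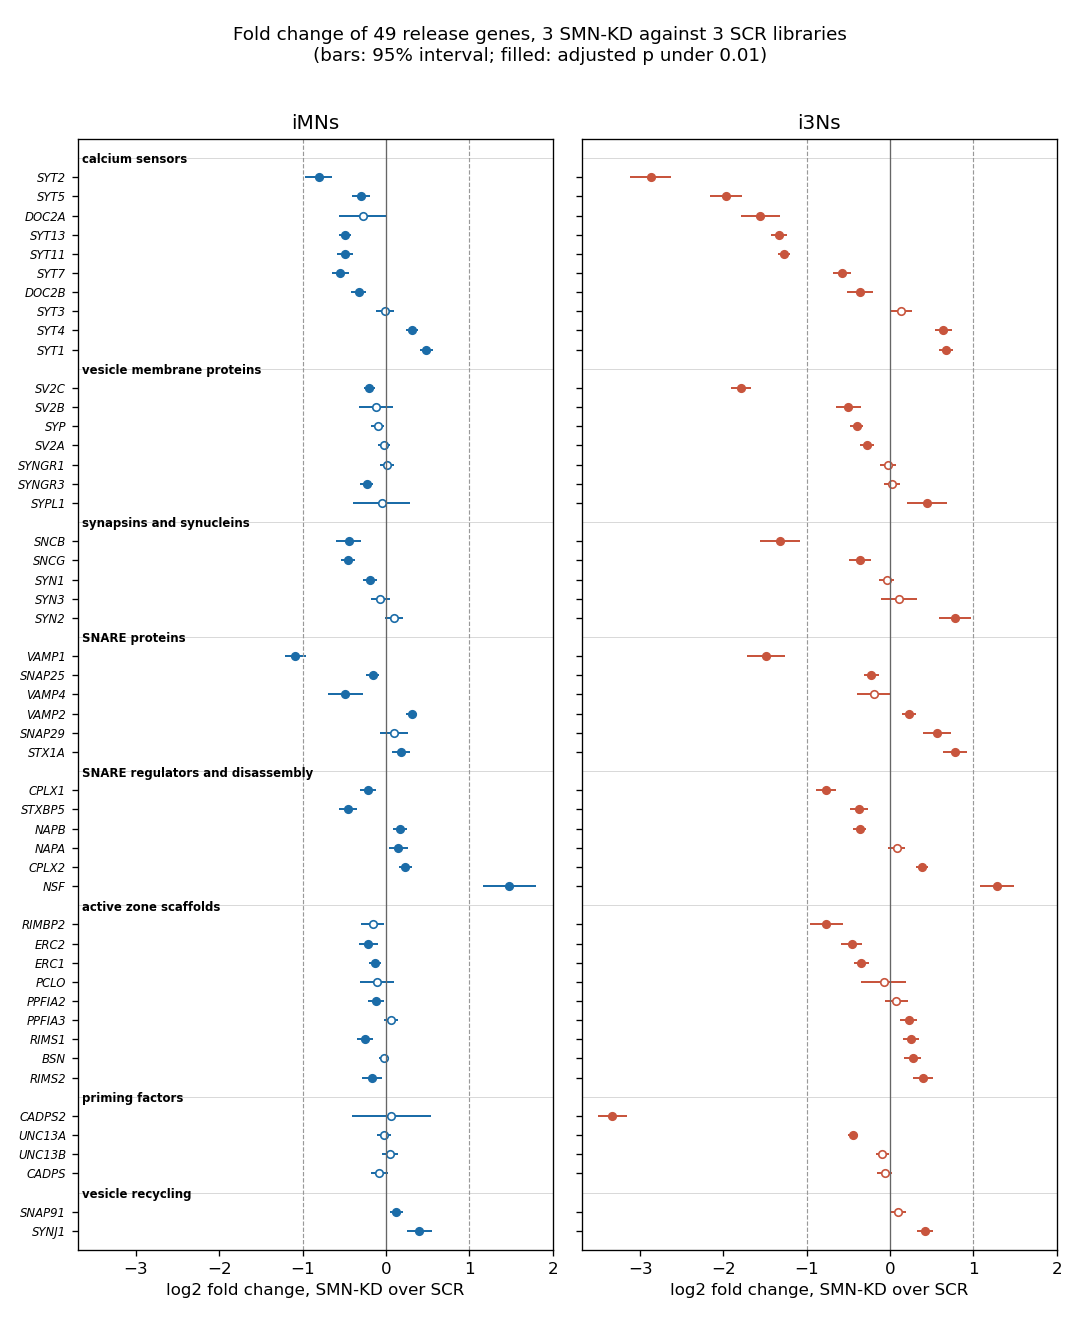
Log2 fold change after *SMN*-KD relative to SCR (x axis) for each of the 49 release genes (rows, grouped by role) in iMNs (left) and i3Ns (right), with points for the fold change, bars for the 95% interval, filled points for an adjusted p under 0.01 and dashed lines at a 2-fold change. The iMN values lie between -1.09 (*VAMP1*) and 1.48 (*NSF*), and the i3N values reach down to -3.33 (*CADPS2*) and -2.87 (*SYT2*).

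Active zone scaffolds changed by small amounts and not in one direction. The RIM proteins, which tie vesicles and calcium channels to the active zone, went opposite ways. *RIMS1* fell from 5438 to 4567 normalized counts in iMNs (-0.25 ± 0.04, adjusted p = 4.11e-09) and rose from 5826 to 6949 in i3Ns (0.25 ± 0.04, adjusted p = 5.33e-09). *RIMS2* fell from 4217 to 3760 in iMNs (-0.17 ± 0.06, adjusted p = 0.00708) and rose from 3982 to 5242 in i3Ns (0.40 ± 0.06, adjusted p = 1.94e-11). *ERC1* (ELKS), the highest scaffold per kb in both tables (2389 and 1360 per kb in SCR), fell in both, from 22235 to 20288 in iMNs (-0.13 ± 0.03, adjusted p = 3.29e-05) and from 12663 to 9965 in i3Ns (-0.35 ± 0.04, adjusted p = 2.5e-17), and *ERC2* fell in both too (-0.21 and -0.46). *RIMBP2*, which links RIM to calcium channels, fell in i3Ns (-0.77 ± 0.09). The giant scaffold *BSN* rose in i3Ns (0.27 ± 0.04) and its relative *PCLO* passed in neither type. In all 5 of the 9 scaffolds fell and none rose in iMNs, while 3 fell and 4 rose in i3Ns.

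*CADPS2* (ENSG00000081803, chr7:122318411-122886759, minus strand) showed the largest change of any release gene. *CADPS* proteins prime dense-core and synaptic vesicles for release. *CADPS2* went from 2506 to 249 normalized counts in i3Ns (-3.33 ± 0.08, adjusted p listed as 0), and in iMNs its level was low, at 41.2 in SCR and 43.0 in *SMN*-KD (0.06, 95% interval -0.40 to 0.53, adjusted p = 0.786). Its paralog *CADPS*, the most abundant priming factor per kb in both tables (3712 and 3632 per kb in SCR), was at 20439 and 19360 in iMNs (-0.08 ± 0.05, adjusted p = 0.173) and at 20001 and 19144 in i3Ns (-0.06 ± 0.04, adjusted p = 0.185). *UNC13A* (Munc13-1), the main priming factor of central synapses, fell in i3Ns from 26587 to 19538 (-0.44 ± 0.02, adjusted p = 1.64e-72) and was at 28554 and 28102 in iMNs (-0.02 ± 0.04). No priming factor passed in iMNs.

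Of the 2 recycling factors, *SYNJ1*, the lipid phosphatase that uncoats endocytosed vesicles, rose in both types (0.40 ± 0.07 and 0.42 ± 0.04). *SNAP91* (AP180), a clathrin assembly protein and the higher of the 2 per kb, rose from 13437 to 14669 in iMNs (0.13 ± 0.04, adjusted p = 0.00141) and was at 10483 and 11232 in i3Ns (0.10 ± 0.04, adjusted p = 0.0181).

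The falls in i3Ns stood beside the falls of proliferation, mesenchymal and oligodendrocyte lineage markers in the same libraries, given above. The sum over 7 motor neuron markers went from 27972 to 22489 in i3Ns. Of these 5 fell and 1 rose, with log2 changes from -3.00 for *CHAT* (937 to 117) to 0.35 for *ISL2*. The pan-neuronal sum over 7 genes went from 425627 to 342390 in i3Ns and from 511511 to 391627 in iMNs. In iMNs 6 of these fell and 1 rose, with log2 changes from -0.63 for *TUBB3* to 0.35 for *RBFOX3*. *DCX*, the most abundant of them, went from 222182 to 144152 there, while *MAP2* changed by -0.08. In i3Ns 5 fell and 2 did not pass. In iMNs 0 of 4 measured proliferation markers passed and 5 of 6 measured mesenchymal markers rose. The motor neuron sum went from 17041 to 11534 there, with 4 of the 7 lower and 1 higher. Among them *SLC5A7* went from 10716 to 6205, *CHAT* from 725 to 340 (-1.09, DESeq2 adjusted p = 5.8e-24) and *ISL1* rose (0.24). Of the 9 release genes called lower in i3Ns, 7 passed as lower in iMNs, at -1.09 for *VAMP1* and between -0.81 (*SYT2*) and -0.20 (*SV2C*) for the rest, and *CADPS2* (0.06) and *DOC2A* (-0.28) did not pass there. The part of the markers in these falls was not tested in either type.

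**Figure D3:**
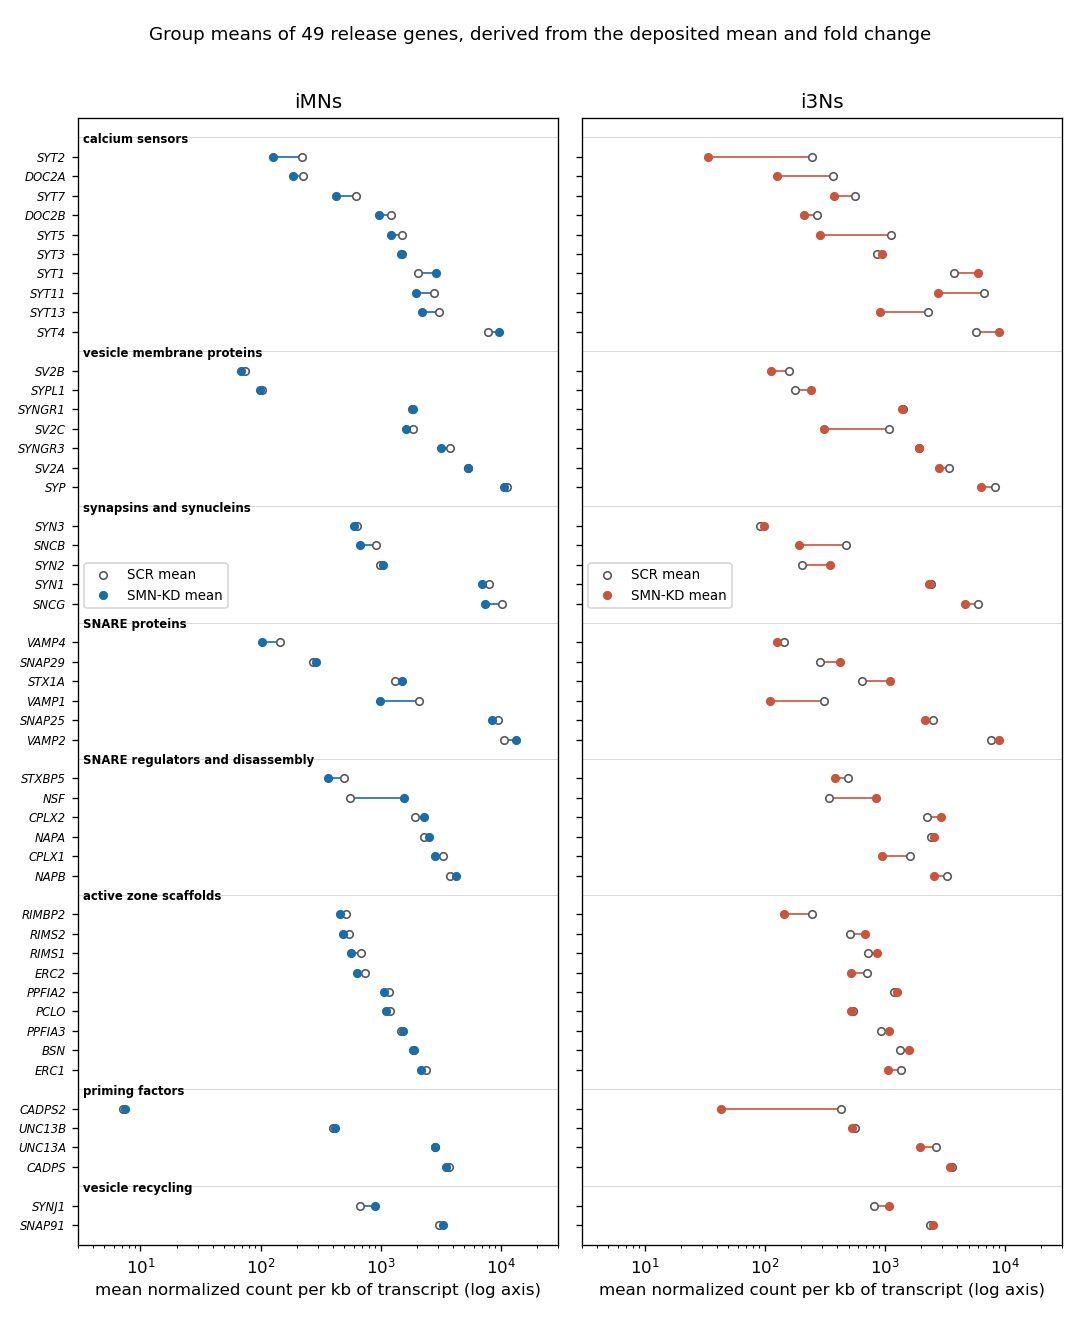
Mean normalized count per kb of MANE Select transcript (x axis, log scale) of each release gene in SCR (open points) and *SMN*-KD (filled points), derived from the deposited mean and fold change, in iMNs (left) and i3Ns (right). *SYP*, *VAMP2* and *SNCG* lie at the top in SCR iMNs, and the longest lines belong to *CADPS2* and *SYT2* in i3Ns.

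Levels in SCR neurons were alike in order, with a Spearman rho of 0.88 across the 49 genes per kb of transcript, a description across genes of tables that were normalized separately. In 7 genes the levels differed by more than 3-fold between the tables. *SYN3*, *VAMP1*, *SYN2*, *DOC2B*, *SNAP25* and *SYN1* were higher in iMNs, by 6.91, 6.79, 4.81, 4.40, 3.72 and 3.34 times, and *CADPS2* was at 7.14 per kb in iMNs and 435 in i3Ns. These ratios carry no test.

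The responses of the 2 neuron types were related but not equal. Across the 49 genes the fold changes had a Pearson r of 0.60 and a Spearman rho of 0.70, given as a description, since genes are not independent replicates. Of the 49, 15 fell in both types (30.6%, beside 13.1% of the 16093 genes in both tables), 7 rose in both (14.3% beside 10.97%) and 3 passed in opposite directions (6.12% beside 3.08%). A further 6 passed in neither type (12.2% beside 35.6%), 12 passed in i3Ns alone (24.5% beside 28.2%) and 6 in iMNs alone (12.2% beside 9.10%). These shares are not matched for abundance and carry no test. A Wald test of the difference itself was adjusted over the 16093 genes in both tables. It found 18 release genes with a lower fold change in i3Ns (36.7%), beside 18.1% of all genes. A further 10 had a higher one (20.4%), beside 16% of all genes. These shares too are not matched for abundance. The largest differences, i3Ns minus iMNs, were -3.40 ± 0.25 for *CADPS2*, -2.07 ± 0.14 for *SYT2*, -1.67 ± 0.10 for *SYT5* and -1.59 ± 0.06 for *SV2C*. *VAMP1* differed by -0.40 ± 0.12 (adjusted p = 0.00386). For *NSF* the difference was -0.20, with a 95% interval of -0.55 to 0.16, and for *SYT7* -0.03, from -0.16 to 0.11. All 3 genes with opposite directions passed this test, with differences of 0.51 ± 0.06 for *RIMS1*, 0.56 ± 0.08 for *RIMS2* and -0.54 ± 0.05 for *NAPB*.

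**Figure D4:**
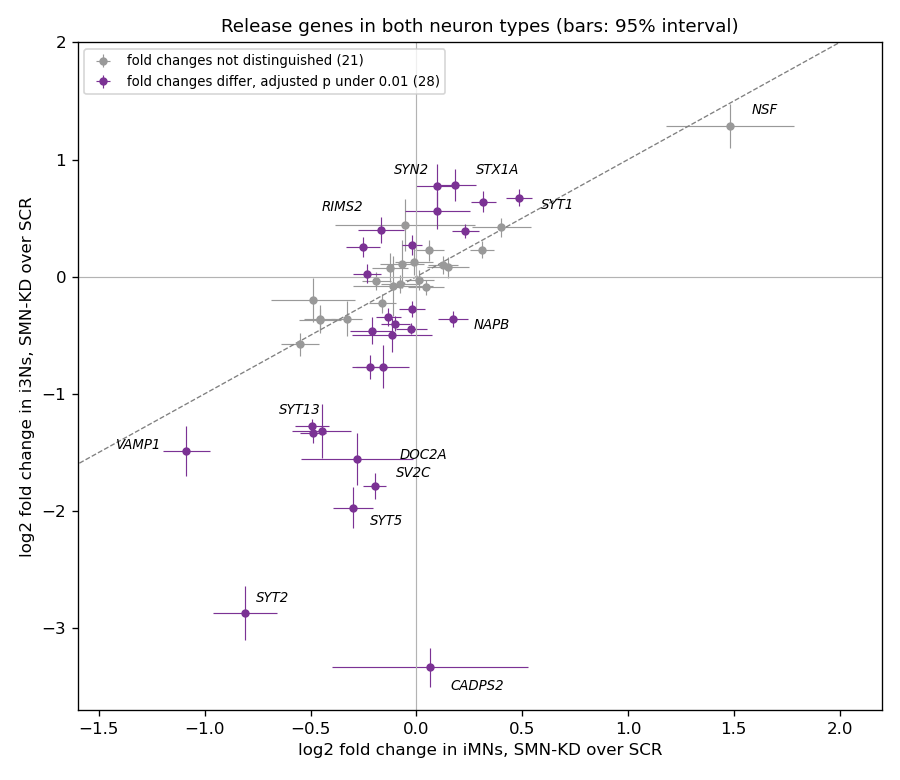
Log2 fold change of each release gene in iMNs (x axis) against that in i3Ns (y axis), with 95% intervals as bars and a dashed line of equality. Purple points mark the 28 genes whose fold changes differed between the types by the Wald test, most of the large ones below the line, while *NSF* lies close to it.

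Matches to the shRNA guides were counted in the 3′-UTRs of release genes and of all genes. The motifs searched in the sense strand of the 3′-UTR were CTAATAA and GCTAATA for the SMN guide (bases 2 to 8 and 3 to 9, which overlap in an 8-base match) and CTAGTAA and ACTAGTA for the scrambled guide. The SMN guide matched 10 of the 49 (*SYT7*, *SV2B*, *SYN2*, *SYPL1*, *VAMP4*, *RIMS1*, *RIMBP2*, *PCLO*, *NAPB* and *CADPS2*) and 19.1% of the 14276 genes of the iMN table with a MANE Select 3′-UTR. The scrambled guide matched 8 (*SYT1*, *SYT2*, *SV2C*, *SYN3*, *SNAP29*, *NSF*, *DOC2B* and *CADPS2*) and 11.4% of those genes. An 8-base match was counted for the SMN guide only. In *CADPS2* the motifs of the scrambled guide also overlap in an 8-base match, to that guide. The 8-base match to SMN guide bases 2 to 9, present in 3.47% of genes, was found in *SYT7*, at both sites of *VAMP4* and in *RIMS1*. All 3 were lower in iMNs (-0.55 for *SYT7*, -0.49 for *VAMP4* and -0.25 for *RIMS1*), and in i3Ns *SYT7* was lower (-0.58), *VAMP4* did not pass (-0.20) and *RIMS1* was higher (0.25). Of the 8 members with a scrambled-guide match, *NSF* and *SYT1* rose in both types and *SYT2*, *SV2C* and *DOC2B* fell in both. The median log2 fold change of the 9 members that matched the SMN guide alone was -0.12 in iMNs and -0.20 in i3Ns, beside -0.17 and -0.27 over all genes of that class. For the 7 that matched the scrambled guide alone it was -0.07 and 0.11, beside 0.14 and 0.26 over all genes of that class. The 32 members with neither match had medians of -0.11 and -0.08, beside 0.02 and 0.00, and included *SYT5*, *SYT11*, *SYT13*, *SNCB*, *DOC2A* and *VAMP1*. The part of such matches in the fold changes was not tested and a match is a description of letters only.

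**Figure D5:**
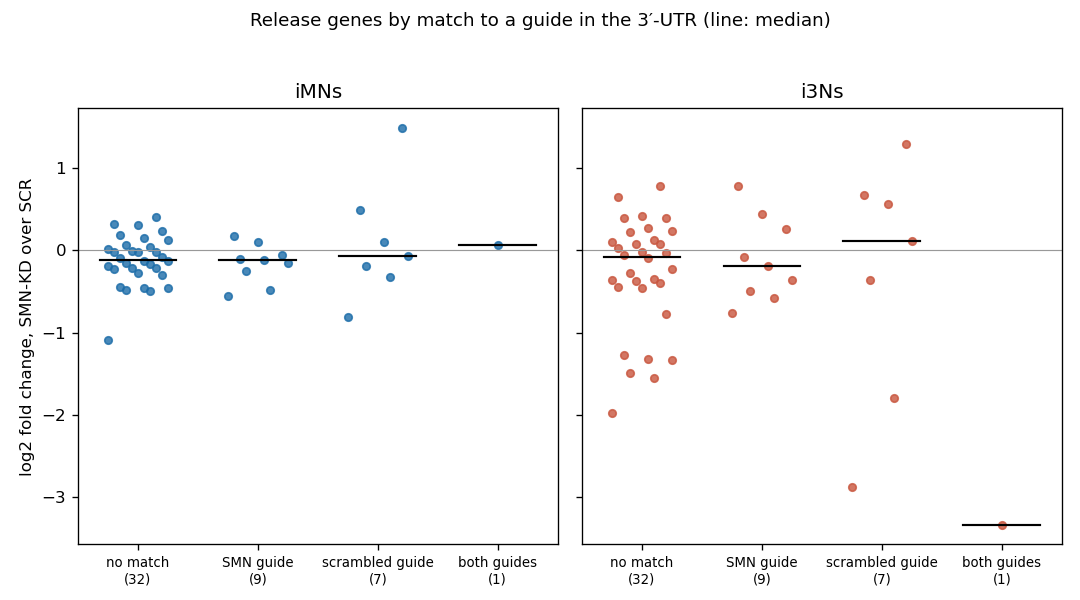
Log2 fold change after *SMN*-KD relative to SCR (y axis) for release genes with no match, a match to the SMN guide, a match to the scrambled guide or both in the 3′-UTR, with each gene as a point and the group median as a line. The 32 genes without a match span -1.09 to 0.40 in iMNs and -1.97 to 0.78 in i3Ns, so members with large falls are found among them.

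Beyond the 49, a list of 49 other genes of vesicle release and its relatives was described in the same way. In iMNs 46 were measured, of which 14 fell and 6 rose (18.7% and 17.1% of all genes did), with a median of -0.05. In i3Ns all 49 were measured, of which 17 fell and 15 rose (25.7% and 22.8% of all genes did), with a median of -0.08. Called lower were *VAMP7*, a SNARE of late endosomes and neurite growth (-1.44 ± 0.10 in iMNs), *NAPG*, the gamma-SNAP adaptor (-1.28 ± 0.07 in iMNs), and *SCAMP1*, a vesicle carrier membrane protein (-1.08 ± 0.06 in iMNs and -1.23 ± 0.07 in i3Ns). *RPH3A*, a RAB3 effector on vesicles, was called in opposite directions, from 1520 to 694 in iMNs (-1.13 ± 0.10) and from 231 to 480 in i3Ns (1.06 ± 0.15), a difference of 2.19 (adjusted p = 5.47e-33). In i3Ns *SYT6* (-1.69 ± 0.28), *UNC13C* (-2.78 ± 0.34) and *CPLX4* (-2.10 ± 0.88), all of low level, were called lower. Called higher there were *SYT16* (1.12 ± 0.07) and *LIN7C*, a scaffold partner of *CASK* (1.15 ± 0.04). *UNC13D*, known for release of lytic granules, was called higher there too (1.04 ± 0.33), also at a low level (a mean of 65.6). *NAPG*, a partner of *NSF* in SNARE disassembly, fell (-0.81 ± 0.06 in i3Ns) where *NSF* rose. The 3′-UTR of *NAPG* held 3 matches to the SMN guide, while *NSF* matched the scrambled guide. *VAMP7* held 1 match to the SMN guide, *SCAMP1* and *LIN7C* held 2 and 1 to the scrambled guide, and *SYT16* held 2 to each. The part of these matches was not tested.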

How the data were processed

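Per the labels, total RNA depleted of ribosomal RNA was sequenced as 150 bp paired-end reads. The authors used fastp for trimming, Salmon for quantification and DESeq2 for the test of knockdown against scrambled, fitted to each neuron type on its own. Versions, annotation and filter are not given in the sources used here. The deposited signal column is a mean normalized count (counts scaled by size factors, averaged across the 6 libraries of a type). The other deposited columns hold the log2 fold change of that comparison, its standard error on the log2 scale, the p-value and the adjusted p-value. These columns are the authors' own comparison, and they were used because the genes were defined on these tables and no counts per library were analysed here. The planned count model was therefore not run, and depth per library is unknown. The means summed to 43320600 in iMNs and 45043400 in i3Ns, and the median standard error was 0.04 for release genes against 0.09 for all genes in iMNs and 0.05 against 0.12 in i3Ns. The fold changes may be shrunken, since over release genes fold change over standard error was a median 0.988 (iMNs) and 0.996 (i3Ns) of the z of the deposited p-value, lowest for *CADPS2* in iMNs (0.655).

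Group means were derived as 2 × mean / (1 + 2 to the power of the fold change) for SCR, and that value times the fold change for *SMN*-KD. A member with 2 identifiers (*NSF*, *DOC2B*) was taken at the identifier with the higher mean. Levels between genes were compared per kb of the MANE Select transcript (GENCODE 44, GRCh38), with all 49 members matched. Fold changes of the neuron types were compared by a Wald z with covariance 0 and Benjamini-Hochberg adjustment over all shared genes. A check on simulated differences drew values with the standard errors and independence that the test assumes. It therefore could not show whether these assumptions hold in the data. Guide matches were counted in MANE Select 3′-UTRs, and sequences were read from GENCODE transcripts and hg38. Values in full are given for members called in either type, for members with opposite directions, and for the member of each role with the highest level per kb. Of the other release genes, those called are named. Marker lists covered motor, glutamatergic and pan-neuronal, astroglia, oligodendrocyte lineage, mesenchymal and proliferation genes. The members and lists were chosen with earlier results of these data known. Analyses used Python 3.11.15 with pandas 2.3.3, numpy 2.4.6, scipy 1.17.1 and matplotlib 3.10.9.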

Additional observations from a re-analysis of the deposited data

Results flagged for a closer look

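The fold changes of 28 release genes differed between the neuron types by the Wald test (adjusted p under 0.01 over the genes in both tables), and each difference below is i3Ns minus iMNs on the log2 scale. The cultures differ in line, differentiation and sorting as well as in type, and these cannot be told apart.

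Among the synaptotagmins and DOC2 proteins, the difference was -2.07 for *SYT2*, -1.67 for *SYT5*, -1.28 for *DOC2A*, -0.84 for *SYT13* and -0.78 for *SYT11*. It was 0.19 for *SYT1* and 0.33 for *SYT4*, which rose in both types and more in i3Ns. For vesicle membrane proteins it was -1.59 for *SV2C*, -0.38 for *SV2B*, -0.30 for *SYP*, -0.26 for *SV2A* and 0.26 for *SYNGR3*. For synapsins and synucleins it was -0.87 for *SNCB* and 0.68 for *SYN2*.

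For SNARE proteins the difference was -0.40 for *VAMP1*, 0.47 for *SNAP29* and 0.60 for *STX1A*. For their regulators it was -0.55 for *CPLX1*, -0.54 for *NAPB* and 0.16 for *CPLX2*. Among active zone scaffolds it was -0.61 for *RIMBP2*, -0.25 for *ERC2*, -0.21 for *ERC1*, 0.29 for *BSN*, 0.51 for *RIMS1* and 0.56 for *RIMS2*. For priming factors it was -3.40 for *CADPS2*, whose level in iMNs was low, and -0.42 for *UNC13A*. Neither recycling factor differed by this test, with intervals of -0.13 to 0.08 for *SNAP91* and -0.14 to 0.18 for *SYNJ1*.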

How the results depend on the processing

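Counts of release genes were recomputed under 71 alternatives, of which 64 stayed within 1.5 times the reported count. With standard errors doubled, 10 rather than 21 release genes were lower and 5 rather than 10 higher in iMNs, and 10 rather than 18 differed with a lower and 3 rather than 10 with a higher fold change in i3Ns. With a called change set at more than 0.5 on the log2 scale, 3 were called lower in iMNs and 6 called higher in i3Ns, against 1 each. With an 8-base match, 3 rather than 10 release genes matched the SMN guide. The restriction to genes with a mean of at least 1000 was chosen after seeing the data. Of 445 alternatives for 147 single values, 395 were unchanged. This meant the same side of the threshold or, for 4 sums of identifiers, a shift of under 1 standard error. The sign reversed in 0, but most settings left the fold change itself as it was and centring barely moved it. The absence of reversals therefore says little. Centring moved the fold changes by 0.01 in both types and also took p from the Wald z. After it *NAPA* no longer passed in iMNs (0.14, adjusted p = 0.0147), while *SYP* in iMNs (-0.11, adjusted p = 0.00655) and *UNC13B* in i3Ns (-0.10, adjusted p = 0.00379) did. With p from the Wald z and no centring, 9 rather than 10 release genes were already higher in iMNs.

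No paired analysis was possible because the values used here are per comparison, not per library, so the shared replicate numbers could not be used. For the same reason no replicate was left out in turn, and total counts were not at hand to weigh the libraries by depth.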

Other observations

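The glutamate transporter genes that load or clear transmitter moved apart from each other. *SLC17A6* and *SLC17A7*, which fill synaptic vesicles with glutamate, fell in i3Ns (-0.73 and -0.70), and *SLC17A6* fell in iMNs as well (-0.71). In iMNs *SLC17A7* was at 48.5 in SCR and 51.7 in *SMN*-KD. *SLC1A2*, a glutamate uptake transporter, was called higher in i3Ns, from 3608 to 10752 normalized counts (1.58, DESeq2 adjusted p = 5.81e-226), and rose from 9075 to 10854 in iMNs (0.26, adjusted p = 3.22e-08). Of the 3 measured astroglia markers it alone passed, in both tables, and *SLC1A3* was at a mean of 21.1 in i3Ns and 46.2 in iMNs. *SLC5A7*, the choline transporter of cholinergic terminals, fell in both, with log2 changes of -1.85 in i3Ns and -0.79 in iMNs. The 3′-UTRs of *SLC17A6* and *SLC5A7* each held 1 match to the SMN guide, and that of *SLC17A7* held 0 to either guide. *SLC1A2* held 1 match to each guide and *SLC1A3* held 1 to the scrambled guide. The part of these matches in the changes was not tested. Of 7 motor neuron markers 4 fell and 1 rose in iMNs, and 5 fell and 1 rose in i3Ns. Of 7 pan-neuronal markers 6 fell and 1 rose in iMNs, and 5 fell in i3Ns.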
